A study of Mus musculus with 6 samples.

Results

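The cluster of miR-322, miR-503 and miR-351 is a group of X-linked miRNA hairpins that lie close together on one strand. Its members here were chosen by name: mmu-miR-322-5p, mmu-miR-322-3p, mmu-miR-503-5p, mmu-miR-351-5p, mmu-miR-450a-5p and mmu-miR-542-3p, written below without the prefix, which are 6 of 1964 mature miRNAs measured. The libraries were small RNA libraries of exosomes, vesicles that cells shed into their medium, 3 of cultured epidermal stem cells (ESC) of mouse dorsal skin and 3 of cultured dermal fibroblasts (Fb). The ESC were taken from C57BL/6 mice aged 3 weeks, in the resting phase of the hair cycle, and cultured in serum-free keratinocyte medium. The Fb were taken from db/db mice aged 14 weeks, a strain that lacks normal leptin receptor signalling and becomes obese and diabetic. The Fb were grown with 10% fetal bovine serum and then kept for 2 days in serum-free medium before collection. The strain label nevertheless reads C57BL/6 for all 6 libraries, and the labels give passages 0 to 1 for all of them. Cell type, donor strain and age, and medium differed together between the groups, and their parts cannot be told apart. No label ties a library to one animal or says whether animals were pooled, and the spread behind each p-value, which is that between libraries, may be technical.

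Each miRNA hairpin is cut into a 5p and a 3p arm, either of which can be loaded into the silencing complex, where bases 2 to 8 of the arm (the seed) pair with target mRNAs. miR-322 and miR-503 are best known for slowing the cell cycle, through targets such as the cyclins and the phosphatase Cdc25a, and for a role in muscle differentiation. Products of one cluster can be made from a common primary transcript, yet each is processed, stabilised and exported on its own.

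The mature sequences from RefSeq (GRCm38.p6), shown 5′ to 3′ with the seed in capitals, are given for the members and for 4 relatives from other loci, because a shared seed means shared candidate targets. All 6 members were matched.
miR-322-5p: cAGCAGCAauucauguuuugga
miR-16-5p: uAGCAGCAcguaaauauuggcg
miR-497a-5p: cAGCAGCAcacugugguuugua
miR-503-5p: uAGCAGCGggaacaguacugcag
miR-351-5p: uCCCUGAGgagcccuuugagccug
miR-125a-5p: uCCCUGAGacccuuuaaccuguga
miR-125b-5p: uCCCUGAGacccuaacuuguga
miR-322-3p: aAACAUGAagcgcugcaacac
miR-542-3p: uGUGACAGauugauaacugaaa
miR-450a-5p: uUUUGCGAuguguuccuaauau
miR-322-5p carries the seed of the miR-15 and miR-16 family, to which miR-497a-5p also belongs. The seed of miR-503-5p differs from it by A8G, counted from 1 at the 5′ end of miR-322-5p with the base of miR-322-5p first. miR-351-5p carries the seed of miR-125a-5p and miR-125b-5p, while miR-322-3p, miR-542-3p and miR-450a-5p carry seeds that differ from these and from one another.

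All hairpins lie on the minus strand of chromosome X (GRCm38, GENCODE M21). In order of transcription they are Mir322 (53054255 to 53054349), Mir503 (53053984 to 53054054), Mir351 (53053255 to 53053353), Mir542 (53049403 to 53049487), Mir450-2 (53048299 to 53048367), Mir450-1 (53048154 to 53048244) and Mir450b (53047997 to 53048078). Mir322, Mir503 and Mir351 fall within 1095 bases, and 3767 bases separate Mir351 from Mir542. None lies in an annotated exon or intron of a protein-coding gene. The annotated lncRNA C430049B03Rik (53055046 to 53057190), upstream of Mir322 on the same strand, was not analysed here. miR-450a-5p is encoded identically in Mir450-1 and Mir450-2, so its reads cannot be assigned to either.

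Assigned reads ran from 9894485 to 11149046 in the ESC and from 6914504 to 8691350 in the Fb libraries. Reads of mature miRNAs ran from 1392859 to 1522604 in ESC but from 49019 to 177990 in Fb libraries, with replicate 1 the lowest, so 1 read stood for at most 0.718 counts per 1000000 mature miRNA reads (CPM) in ESC and for up to 20.4 CPM in Fb. The vesicles were sequenced in bulk, so a larger part of the vesicles coming from some cells and more of an RNA per vesicle cannot be told apart. The labelled cell types were checked on miRNAs. All 7 epithelial markers (the miR-200 family, miR-203-3p and miR-205-5p) were higher in ESC, with a summed level of 59872 to 74600.0 CPM in ESC libraries and of 7457 to 14174 CPM in Fb. All 4 mesenchymal markers were higher in Fb, with 83105 to 110232 CPM in Fb libraries against 128 to 137 CPM in ESC. Among markers of other cells, the pigment-cell marker miR-211-5p had 0 reads in every library. Blood-cell markers summed to 0.957 to 4.60 CPM in ESC libraries and to 36.5 to 143 CPM in Fb, with miR-142a-3p at 0 throughout. The 1 of these 6 markers tested, miR-142a-5p, passed as higher in Fb, at 0, 0.676 and 1.31 CPM in ESC libraries against 102, 16.9 and 67.4 CPM (log2 fold change 5.60, edgeR adjusted p = 0.00230). It entered the test only through the Fb libraries, where it was high, on 5, 3 and 8 reads, so this call is weak support. miR-451a, which was not tested, was also higher in every Fb library in CPM, on 2, 1 and 7 reads. The gap, from 3.28 CPM in ESC replicate 3 to 5.62 CPM in Fb replicate 2, was under the worth of 1 Fb read. Scaled to all assigned reads, the groups overlapped. The endothelial pair miR-126a-3p and miR-126a-5p summed to 77.1 to 120 CPM in ESC libraries and to 109 to 347 CPM in Fb, and the 1 of them tested did not pass. The part of these cells in the results was not tested.

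Among the members, only miR-503-5p passed the test on the scale of mature miRNA reads, as higher in Fb exosomes. Scaled to all assigned reads instead, it did not pass and its log2 fold change was -0.30. Its estimated read counts were 20, 12 and 18.9 in ESC replicates 1 to 3 and 5, 13 and 13 in Fb replicates 1 to 3. Scaled to mature miRNA reads, these were 14.4, 8.11 and 12.4 CPM in ESC and 102, 73.0 and 109 CPM in Fb libraries. Every Fb library lay far above every ESC library, although the Fb values rested on 31 reads in all. The mean was 94.8 ± 19.2 CPM for Fb against 11.6 ± 3.20 CPM for ESC (SD, n = 3 each). The log2 fold change, Fb over ESC, was 2.59 (SE 0.43), with an adjusted p = 0.00236 in the quasi-likelihood test of edgeR, adjusted by the Benjamini-Hochberg method over 325 mature miRNAs. From summed reads, the Fb rate was 7.73 times the ESC rate, with an exact 95% counting interval of 4.78 to 12.3. Intervals of this kind, like the binomial intervals over summed reads below, cover counting error only. They pool the libraries of a group and so leave out the spread between libraries. The reads carry no molecular identifiers, so copies of one molecule may be counted more than once and the intervals may be too narrow.

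Such calls were common. Of the 325 mature miRNAs, 49.5% passed, 90 (27.7%) as higher in Fb and 71 (21.8%) as higher in ESC exosomes. Of the 4 members tested, 1 passed as higher in Fb and 0 as higher in ESC, with 2 at an unadjusted p under 0.05 in the same edgeR fit. The 4 members had a median log2 fold change of 1.17, against 0.11 over all miRNAs tested. The low-count filter kept a miRNA that reached 12.7 CPM in 3 libraries. miR-503-5p reached it in 1 ESC and 3 Fb libraries and miR-322-5p in 2 ESC and 3 Fb libraries, so both entered through the group where they were high. miR-322-3p and miR-351-5p reached it in all 6 libraries. With a filter of 10 reads in 3 libraries, which miR-503-5p met in all 3 ESC libraries, its log2 fold change was 2.46 (edgeR adjusted p = 0.00293).

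Both arms of miR-322 had few reads and did not pass. miR-322-5p, the arm with the miR-16 seed, had 24, 30.9 and 17 reads in ESC and 3, 4 and 5 reads in Fb libraries. Its levels were 17.2, 20.9 and 11.2 CPM in ESC and 61.2, 22.5 and 42.1 CPM in Fb libraries. The groups did not overlap, but the lowest Fb library exceeded the highest ESC library by less than the worth of 1 Fb read. The log2 fold change was 0.81 (SE 0.50, edgeR adjusted p = 0.215). The counting interval of the rate ratio ran from 1.05 to 3.93.

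miR-322-3p had 22.9, 23.0 and 30.9 reads in ESC and 1, 8 and 14 reads in Fb libraries. Its levels were 16.4, 15.5 and 20.3 CPM in ESC and 20.4, 44.9 and 118 CPM in Fb libraries. Fb replicate 1 lay at the ESC level on a single read, and replicate 3 far above it. The log2 fold change was 1.53 (SE 0.60, edgeR adjusted p = 0.0689). Without Fb replicate 1 it was 1.74 and passed (edgeR adjusted p = 0.0190), and without Fb replicate 3 it was 0.74 (edgeR adjusted p = 0.432).

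miR-351-5p held the most reads of the cluster, with 112, 108 and 121 in ESC and 11, 13 and 20 in Fb libraries. Its levels were 80.4, 73.0 and 79.5 CPM in ESC and 224, 73.0 and 168 CPM in Fb libraries. ESC libraries were close to one another, and Fb replicate 2 lay among them while Fb replicates 1 and 3 were higher. The log2 fold change was 0.50 (SE 0.41, edgeR adjusted p = 0.344).

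The remaining members were near the limit of detection. miR-542-3p had 5, 7 and 5.83 reads in the ESC libraries, 3.59 to 4.73 CPM, and 0 reads in every Fb library. At the ESC level 1.40 reads would fall in the 3 Fb libraries together, and a count of 0 there allows up to 8.68 CPM (a floor of 3 reads over the group), so no difference in CPM was detectable at this depth. miR-450a-5p had 1 read, in ESC replicate 2. Neither passed the filter. Without a filter all 6 members could be fitted among 968 miRNAs, of which 21.6% passed in either direction, and miR-503-5p was again the 1 member that did (log2 fold change 2.12, edgeR adjusted p = 0.00921). In CPM, 3 of the 6 members were higher in every Fb library, 1 (miR-542-3p) was higher in every ESC library and 2 overlapped. Of the 4 members tested, 3 were higher in every Fb library and 0 in every ESC library, where the shares among the 325 tested miRNAs were 36.3% and 24.9%. For miR-322-5p and miR-322-3p the gap between the groups was under the worth of 1 Fb read. The same holds for miR-542-3p, whose ESC levels lay below the 5.62 to 20.4 CPM that 1 read stood for in Fb libraries. Its separation therefore follows from the Fb counts of 0.

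**Figure D1:**
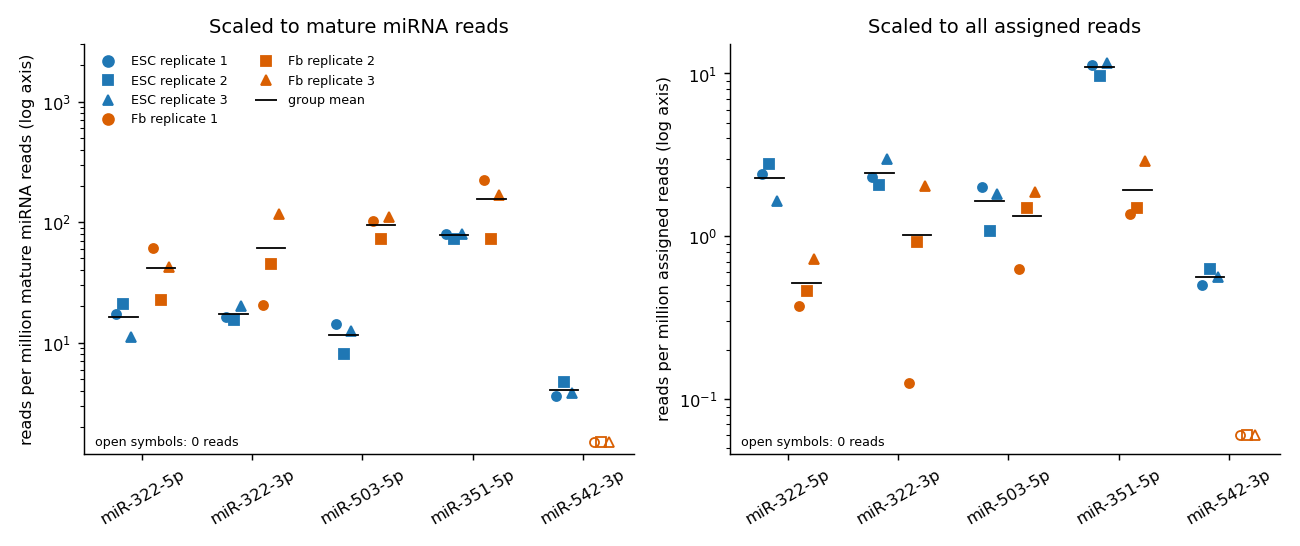
Level of 5 members in each library as reads per 1000000 mature miRNA reads (left) and as reads per 1000000 assigned reads (right), both on log axes. Points are libraries, lines are group means, and open symbols are libraries with 0 reads. In CPM the Fb libraries of miR-503-5p (73.0 to 109) lie above the ESC libraries (8.11 to 14.4), while as reads per 1000000 assigned reads the groups overlap for miR-503-5p and every Fb library lies below every ESC library for the other 4 miRNAs drawn.

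The direction depended on the total that reads were scaled to. Summed over the 6 members, the levels were 132, 123 and 127 CPM in ESC and 408, 213 and 438 CPM in Fb libraries. Means were 127 ± 4.52 CPM and 353 ± 122 CPM (SD, n = 3), a ratio of 2.77. As reads per 1000000 assigned reads the same sums were 18.6, 16.3 and 18.7 in ESC and 2.50, 4.37 and 7.52 in Fb libraries, a ratio of 0.269. Each scale separated the groups completely, in opposite directions, with an exact two-sided permutation p = 0.1 for both, the smallest that 3 against 3 libraries can give. Mature miRNAs were 13.3% to 14.7% of assigned reads in ESC and 0.613% to 2.05% in Fb libraries, and this difference enters the second scale.

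On the scale of all assigned reads, miR-351-5p was at 11.3, 9.68 and 11.7 reads per 1000000 in ESC and 1.38, 1.50 and 2.89 in Fb libraries. miR-322-5p was at 1.64 to 2.77 in ESC and 0.375 to 0.723 in Fb libraries, and miR-322-3p at 2.06 to 2.98 and 0.125 to 2.02. miR-542-3p, at 0.568 over the ESC libraries together, was at least 4.47-fold lower in Fb against the floor of 3 reads over the group. These members were lower in every Fb library, though for miR-322-3p by less than the worth of a single Fb read. miR-503-5p differed, with 2.02, 1.08 and 1.83 in ESC and 0.626, 1.50 and 1.88 in Fb libraries, which overlapped. Of the 4 members tested, 3 were higher in every ESC library on this scale, as were 74.5% of the 325 miRNAs tested, and 0 were higher in every Fb library, against 10.5%. These shares are near those of all miRNAs.

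With all assigned reads as library size, edgeR called miR-351-5p (log2 fold change -2.50, adjusted p = 0.00150) and miR-322-5p (-2.12, adjusted p = 0.00851) higher in ESC exosomes, where 66.8% of all miRNAs tested were called so. On that scale miR-322-3p (-1.28, edgeR adjusted p = 0.151) and miR-503-5p (-0.30, edgeR adjusted p = 0.629) did not pass. The scalings moved the median log2 fold change of all tested miRNAs from -2.72 (all assigned reads) to 0.52 (mature miRNA totals alone). Relative to that median, miR-503-5p stood 2.42 to 2.48 higher in Fb under 5 scalings, miR-322-3p 1.29 to 1.44, miR-322-5p 0.60 to 0.69 and miR-351-5p 0.21 to 0.41. Rescaling moves the members and the median nearly alike, so these narrow ranges follow from the measure and are not separate support. With all RNAs in one fit, against their median, miR-503-5p stood at 1.68, miR-322-3p at 0.71, miR-322-5p at -0.69 and miR-351-5p at -0.61. In the 4 scalings by mature miRNA reads, miR-503-5p passed each time.

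**Figure D2:**
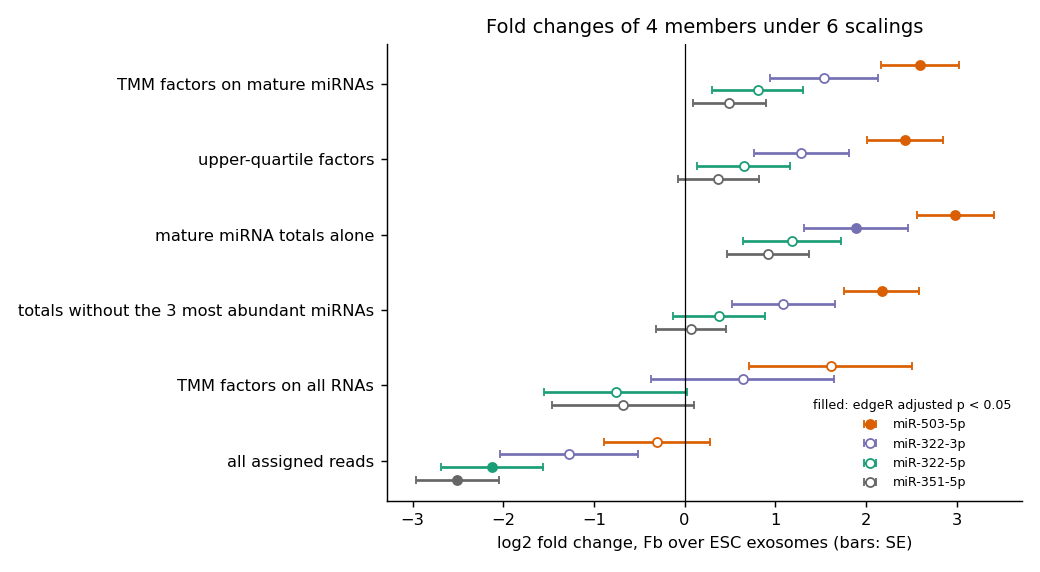
Log2 fold change (Fb over ESC, x axis) of the 4 tested members under 6 scalings (y axis), with bars for the SE and filled points where the edgeR adjusted p was under the threshold. miR-503-5p is the highest of the 4 in each scaling and is filled in the upper 4, from 2.18 to 2.98, while all 4 values lie below 0 in the lowest.

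Ratios between products of one library need no scaling, so they do not depend on the total chosen. miR-503-5p over miR-322-5p was 0.833, 0.388 and 1.11 in ESC and 1.67, 3.25 and 2.60 in Fb libraries. Every Fb library exceeded every ESC library. The mean log2 ratio, with 0.5 reads added to each product, was -0.48 ± 0.77 in ESC and 1.18 ± 0.48 in Fb exosomes (SD, n = 3). The difference was 1.66 (exact two-sided permutation p = 0.1, adjusted to 0.167 over the 5 ratios to miR-322-5p).

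Against miR-351-5p, the best covered product, miR-503-5p stood at 0.179, 0.111 and 0.157 in ESC and 0.455, 1.00 and 0.650 in Fb libraries. This ratio was chosen after the values were seen and is given with no test. Its log2 mean was -2.74 ± 0.34 in ESC and -0.56 ± 0.53 in Fb exosomes (SD, n = 3). miR-503-5p made up 9.57%, 5.66% and 8.60% of the mature reads of the locus in ESC and 25.0%, 32.5% and 24.1% in Fb libraries. Over summed reads this was 7.96% (exact 95% binomial interval 5.98 to 10.3) of 641 reads and 27.2% (19.3 to 36.3) of 114 reads.

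The ratios of miR-351-5p and of miR-322-3p to miR-322-5p overlapped between the groups. miR-351-5p over miR-322-5p was 4.67, 3.49 and 7.12 in ESC and 3.67, 3.25 and 4.00 in Fb libraries (exact permutation p = 0.2, adjusted 0.25). The ratio of the arms, miR-322-3p over miR-322-5p, was 0.955, 0.742 and 1.82 in ESC and 0.333, 2.00 and 2.80 in Fb libraries (exact permutation p = 0.8). Fb replicate 1, with 3 reads of the 5p arm and 1 of the 3p arm, was the lowest of all libraries, and Fb replicates 2 and 3 were the highest. miR-542-3p over miR-322-5p was 0.208, 0.226 and 0.343 in ESC libraries and 0 in Fb libraries (exact permutation p = 0.1, adjusted 0.167). With 12 reads of miR-322-5p in the Fb libraries together, a count of 0 allows miR-542-3p up to 25.0% of the reads of that pair, above the 20.0% found in ESC, so this difference was not detectable at this depth. The fifth ratio, with miR-450a-5p on top, rests on a single read and is not read further.

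**Figure D3:**
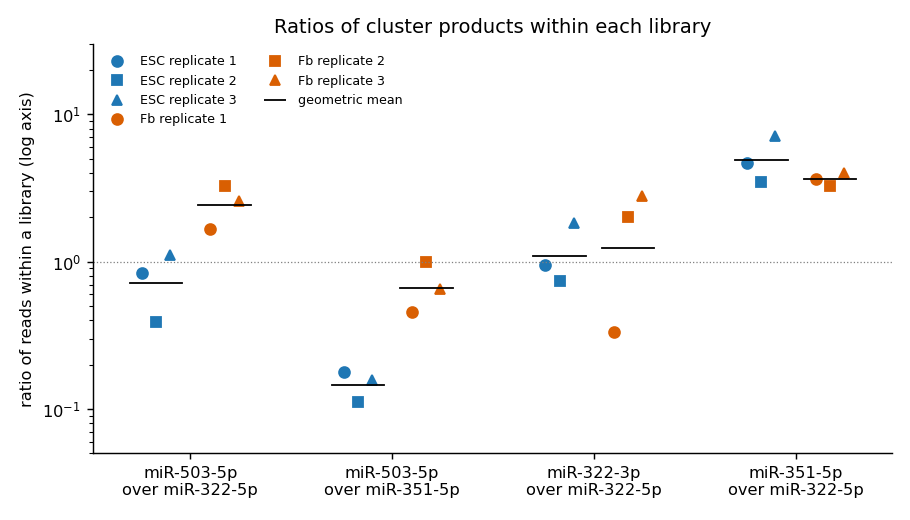
Ratio of reads between pairs of cluster products within each library, on a log axis, with points for libraries and lines for geometric means. Both ratios with miR-503-5p on top lie higher in every Fb library (1.67 to 3.25 over miR-322-5p, 0.455 to 1.00 over miR-351-5p), while the ratios of miR-322-3p and of miR-351-5p to miR-322-5p overlap.

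The arms of both hairpins, shown in capitals, are given because their reads were split in different ways.
Mir322: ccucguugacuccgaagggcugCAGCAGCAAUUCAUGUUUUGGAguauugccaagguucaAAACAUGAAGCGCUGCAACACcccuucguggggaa
Mir503: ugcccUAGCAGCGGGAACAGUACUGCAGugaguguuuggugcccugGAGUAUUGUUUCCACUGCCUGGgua
In Mir322 the 3p arm took 48.9%, 42.6% and 64.6% of arm reads in ESC and 25.0%, 66.7% and 73.7% in Fb libraries, which overlapped. In Mir503 the 3p arm, miR-503-3p, took 25.9%, 45.5% and 17.4% in ESC and 0%, 7.14% and 0% in Fb libraries. Over summed reads it took 29.2% (exact 95% binomial interval 19.0 to 41.1) of 72 reads in ESC and 3.13% (0.0791 to 16.2) of 32 reads in Fb exosomes. The zeros rest on 5 and 13 reads, which allow shares of up to 60.0% and 23.1%. This share was also picked after the values were seen and is not tested.

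The other mature products of the locus are 7, of which 4 had a read. miR-450b-3p was the leading one, with 13, 15 and 23 reads in ESC and 0, 1 and 0.333 reads in Fb libraries. That is 9.33, 10.1 and 15.1 CPM in ESC and 0, 5.62 and 2.81 CPM in Fb libraries. Each Fb library was lower than the lowest ESC library, but by less than the worth of 1 of its own reads. It did not reach the filter. In the fit of all RNAs together, where 11.8% of 2999 RNAs passed in either direction and 3.63% as higher in ESC exosomes, its log2 fold change was -4.15 (SE 1.03, edgeR adjusted p = 0.0275). In the fit of mature miRNAs with a filter of 10 reads in 3 libraries it was -2.41 and did not pass (edgeR adjusted p = 0.0754). miR-450b-3p entered both fits through the ESC libraries, where it was high. The first was not scaled to mature miRNA reads, so the lower miRNA share of Fb libraries can enter its call. From summed reads in CPM, the Fb rate was 0.332 times the ESC rate. The exact counting interval, 0.00619 to 1.45, includes equal rates. miR-503-3p had 21 reads over ESC and 1 over Fb libraries, miR-450b-5p had 9 and 1, and miR-542-5p had 1 and 0.25.

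Taken by position, products of the distant hairpins were a smaller part of the locus in Fb exosomes. The hairpins Mir542, Mir450-2, Mir450-1 and Mir450b together gave 11.0%, 13.2% and 13.1% of the mature reads of the locus in ESC and 0%, 2.50% and 3.70% in Fb libraries. Over summed reads this was 12.5% (exact 95% binomial interval 10.0 to 15.3) of 641 reads and 2.63% (0.546 to 7.50) of 114 reads. The 0 of Fb replicate 1 rests on 20 reads and allows up to 15.0%. Had the ESC ratio to the products of Mir322, Mir503 and Mir351 held, 15.8 reads would have been found in Fb libraries, where 2.58 were. At the ESC level in CPM 6.28 would have been found. The split by position was made after the values were seen and has no test, and the shares of one locus add up, so a larger miR-503-5p share lowers the others.

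**Figure D4:**
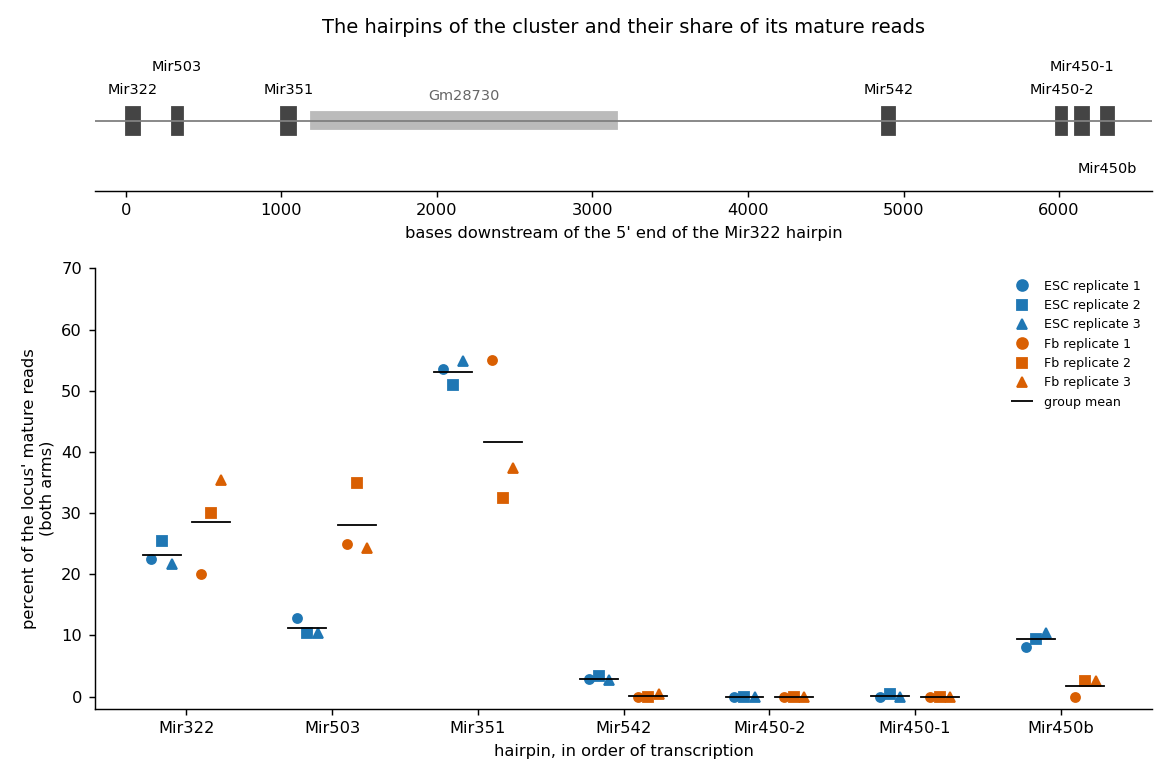
Top, the hairpins of the cluster by distance from the 5′ end of Mir322, with the lncRNA Gm28730 in grey. Bottom, percent of the mature reads of the locus that came from each hairpin, both arms together, with points for libraries and lines for group means, and miR-450a-5p placed under Mir450-1 only. Mir503 holds 10.4% to 12.9% in ESC and 24.3% to 35.0% in Fb libraries, and Mir450b 8.14% to 10.4% and 0% to 2.50%.

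Few reads were assigned to the hairpin rows. A read that matches a hairpin and its arm can be split between them, so these rows do not show how much unprocessed hairpin was present. Of the 7 hairpins, none held more than 0.719 reads in an ESC library or more than 1 read in a Fb library, which was the mir-503 hairpin in Fb replicate 1, and mir-450a-1 and mir-450a-2 had 0 reads in all 6 libraries. The lncRNA Gm28730 (53051194 to 53053159, minus strand), named after its values were seen, lies between Mir351 and Mir542. It had 2.33, 4.13 and 1.46 reads in ESC and 4.94, 0.333 and 0 reads in Fb libraries, too few to compare.

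miR-503-5p is the only mature miRNA measured with its seed, so its share of the reads of that seed is fixed in advance. Relatives held most of the reads of the seeds of miR-322-5p and miR-351-5p. miR-322-5p was 0.170%, 0.172% and 0.113% of the reads of its seed in ESC and 1.85%, 0.244% and 0.477% in Fb libraries. That family was led by miR-16-5p, a widely expressed repressor of the cell cycle, whose mean was 10180 ± 1187 CPM in ESC exosomes and 6533 ± 2992 CPM in those of Fb (SD, n = 3), a difference that did not pass (log2 fold change -0.98, edgeR adjusted p = 0.125). Of its 5 relatives listed, 2 were higher in Fb and 3 did not pass. Those that passed were miR-497a-5p, higher by 5.93 on the log2 scale (edgeR adjusted p = 0.00225, SE 0.97), and miR-195a-5p, higher by 4.24 (edgeR adjusted p = 0.0106, SE 0.98), which are 2 miRNAs of a single locus on another chromosome. In ESC libraries miR-497a-5p had 3, 0 and 4 reads and miR-195a-5p had 0, 1 and 7. Both entered the fit through the Fb libraries where they were high, and their fold changes rest on ESC values near 0. Scaled to all assigned reads, both overlapped between the groups. miR-15a-5p (-0.73) and miR-15b-5p (-0.67) did not pass.

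miR-351-5p held a larger part of its seed, with 4.47%, 3.64% and 4.21% in ESC and 20.8%, 9.15% and 15.7% in Fb libraries. Its relative miR-125a-5p was lower in Fb exosomes, at 1711 ± 99.9 CPM in ESC against 558 ± 174 CPM (SD, n = 3), a log2 fold change of -2.04 (edgeR adjusted p = 0.00225, SE 0.33). miR-125b-5p was at 108 ± 25.3 and 269 ± 82.7 CPM (log2 fold change 0.98, edgeR adjusted p = 0.0684). Fb libraries thus had both the larger share of miR-351-5p and the lower level of the leading relative, while miR-351-5p itself did not pass.

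Stromal clusters had larger fold changes than the members. The 4 products of the cluster of miR-143 and miR-145, known from smooth muscle and stroma, all passed as higher in Fb, with a median log2 fold change of 9.93. The 6 listed products of the group of miR-199 and miR-214 did so too, with 10.72. Of these, miR-199a-3p and miR-199b-3p have the same mature sequence, so they were not measured separately, and miR-199a-3p, at 3.80 CPM in Fb replicate 2 against up to 72.5 CPM in ESC, overlapped between the groups. The size of these medians depends on ESC libraries near or at 0 reads. No test of the difference between the clusters was made.

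Other miRNAs of the X chromosome were called in both directions. Of 17 other X-linked miRNAs listed, 11 entered the fit. Of these, 2 passed as higher in Fb, 2 as higher in ESC and 7 did not pass, with a median log2 fold change of 0.42. Among all miRNAs tested, 27.7% passed as higher in Fb and 21.8% as higher in ESC. The most abundant were miR-221-3p (0.84, edgeR adjusted p = 0.154), miR-532-5p (1.63, edgeR adjusted p = 0.00234), miR-222-3p (0.68, edgeR adjusted p = 0.135) and miR-676-3p (-0.28, edgeR adjusted p = 0.514). The other calls were miR-188-5p (1.74) on the Fb side and miR-421-3p (-1.39) and miR-672-5p (-4.68) on the ESC side, named because the counts are small. miR-188-5p, at 7.83, 13.5 and 11.8 CPM in ESC libraries, entered the fit through the Fb libraries, on 4, 8 and 4 reads there. Scaled to all assigned reads, miR-188-5p and miR-532-5p were instead higher in every ESC library, as were miR-421-3p, miR-672-5p and 74.5% of all miRNAs tested.

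Since miR-322 and miR-503 are known from muscle, muscle markers are given beside them. Of 3 markers, miR-133a-3p and miR-206-3p passed as higher in Fb and miR-1a-3p did not, and none was at 0 in a whole group. miR-133a-3p, at 7.14, 1.35 and 10.5 CPM in ESC libraries, entered the fit through the Fb libraries, where it was high. Scaled to all assigned reads, it overlapped between the groups and miR-206-3p was higher in every ESC library. The 3 markers summed to 123 to 161 CPM in ESC libraries and to 466 to 1714 CPM in those of Fb. The sum was highest in Fb replicate 1, where miR-1a-3p was at 1081 CPM, against 5.62 and 0 CPM in Fb replicates 2 and 3. The part of these markers in the level of miR-503-5p was not tested.

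The miRNAs outside the locus with the profile most like the 6 members together were miR-128-3p, miR-132-3p, miR-378a-3p, miR-345-3p and miR-101a-3p. Likeness was the Euclidean distance between centred log2 CPM profiles over the 6 libraries, which ran from 0.50 for miR-128-3p to 0.68 for miR-101a-3p. miR-128-3p ran from 213.8 to 266 CPM in ESC libraries and from 331 to 619 CPM in Fb, lowest in Fb replicate 2, as the members were. Its log2 fold change of 0.68 did not pass (edgeR adjusted p = 0.0970). miR-132-3p, the next, ran from 154 to 190 CPM in ESC libraries and from 433 to 673 CPM in Fb, and it passed (log2 fold change 1.29, edgeR adjusted p = 0.00663). These miRNAs were picked for their likeness to the summed members, which were higher in every Fb library in CPM. The direction of their fold changes follows from that choice, so their tests are not separate support.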

How the data were processed

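The values the authors deposited are estimated counts, 1 per annotated RNA and library. FastQC, cutadapt and the build GRCm38 are named in the submitters' processing notes, while an aligner, counting tool or strand setting is not given in the sources used here. Libraries were made with the CleanTag kit, per the labels' protocols. Each file lists 16310 RNAs. Of nonzero values 82.6% to 92.2% are fractional, so a read that matches a hairpin and its arm can be split between them, and the counts were rounded before each count model and before each interval.

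Groups came from the titles. The main fit used edgeR 4.0.16 (R 4.3.3) and its quasi-likelihood test on mature miRNAs, with their totals as library size and TMM factors. Its filterByExpr step kept rows by a count of 10 (minimum) and a total of 15 (minimum), and an adjusted p under 0.05 over all mature miRNAs tested was called. Ratios and sums had exact two-sided permutation tests, run in scipy 1.17.1. A ratio of 2 products also carries how well each is ligated, so it was compared only between groups. Counting intervals are exact at 95%. The fits were tested on simulated data.

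The members and lists were chosen with earlier results of these data known. Named were the 6 members, the other products of the locus with a read, seed relatives with at least 10 CPM, at most 4 of each wider list by mean CPM, and the 5 nearest profiles. Alternatives were DESeq2 1.42.0, limma-trend (limma 3.58.1), other factors, library sizes and filters, a replicate block and leaving out each library. miR-351-5p as reference, the share by position and the share of miR-503-3p were added after the data were seen. One listed X-linked miRNA, miR-660-5p, was not analysed here.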

Additional observations from a re-analysis of the deposited data

How the results depend on the processing

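miR-503-5p passed in 14 of 14 alternatives that scaled to mature miRNA reads, with log2 fold changes of 2.08 to 2.98 and adjusted p of 3.14e-06 (DESeq2) to 0.0219 (edgeR with the replicate number as a block). Leaving out single libraries gave 2.08 to 2.62. In the fit of all RNAs it was 1.61 and lost its call (edgeR adjusted p = 0.348), with miR-322-5p at -0.76 and miR-351-5p at -0.68, and with all assigned reads as library size the values were -0.30 for miR-503-5p, -1.28 for miR-322-3p, -2.12 for miR-322-5p and -2.50 for miR-351-5p, since the miRNA share of reads then enters.

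Members called numbered 1 in the main fit, 2 with DESeq2, with miRNA totals alone and with all assigned reads, 1 to 2 when a library was left out, and 0 in the fit of all RNAs (edgeR, with 0 at an unadjusted p under 0.05). The call beside miR-503-5p was miR-322-3p (1.41 with DESeq2, 1.89 with totals alone, 1.74 without Fb replicate 1), while the 2 with all assigned reads were miR-322-5p and miR-351-5p, both higher in ESC. miR-322-5p and miR-322-3p could be fitted in only 3 of the 6 fits without a library, since the filter removed them without any one ESC library. These member counts stand beside the calls among all miRNAs tested. Those were 161 of 325 in the main fit, 189 with DESeq2, 155 with totals alone, 252 with all assigned reads and 114 with the block. They ran from 103 to 213 over libraries left out. Without ESC replicate 3 they were 107 of 245, without Fb replicate 3 103 of 374 and without Fb replicate 1 213 of 380. In the fit of all RNAs, 354 of 2999 RNAs were called. Calls higher in Fb and in ESC were 90 and 71 in the main fit, 103 and 52 with totals alone, 73 and 91 without the 3 most abundant miRNAs, 60 and 86 with 10 reads in 3 libraries, and 35 and 217 with all assigned reads.

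Left-out libraries moved the log2 difference in ratio to miR-322-5p from 1.23 to 1.97 for miR-503-5p, from -0.27 to 1.04 for miR-322-3p, from -0.76 to -0.26 for miR-351-5p and from -1.42 to -1.03 for miR-542-3p, and the summed share from 1.29 to 1.73 (miRNA reads) and from -2.38 to -1.59 (assigned reads). The value for miR-542-3p, -1.25, became -0.48 with a pseudocount of 1 read, which sets it because its Fb reads are all 0, and -0.72 against miR-351-5p, where only the reference changed. The added differences ran from -11.2 to -9.34 percentage points for the distant hairpins and from -33.3 to -19.3 for miR-503-3p. Libraries that share a number did not deviate together (correlations of -0.26, -0.11 and -0.13), so the replicate block pairs nothing known. The 20 to 54 locus reads of a Fb library limit every statement on the minor products.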
